A study of Rattus norvegicus with 24 samples.

Results

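Bdnf, which encodes brain-derived neurotrophic factor, and the genes of the neurotrophin receptors TrkB (Ntrk2) and TrkC (Ntrk3) were followed through 24 RNA-seq libraries of rat brain. The 3 genes were taken by their Ensembl identifiers from the 32552 genes in the tables, and all 3 were present on the chromosome named for them. Male and female Sprague Dawley rats had been given the opioid agonist fentanyl or saline. By the series title, the study concerned withdrawal from opioids and the choice of fentanyl over food. They were killed in place of the last choice session, and bilateral punches were taken from the ventral tegmental area (VTA, 1.19 mm wide) and the nucleus accumbens (NAc, 2.16 mm wide). The labels give no age, dose or time since the last dose, and brains were sliced on a matrix of a different size for each sex. The VTA groups held 3 fentanyl females, 2 saline females, 3 fentanyl males and 2 saline males. The NAc groups held 4 fentanyl females, 3 saline females, 4 fentanyl males and 3 saline males. The libraries came from 14 rats, 10 of which gave a library from each region.

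Neurotrophins are secreted proteins that bind receptor tyrosine kinases of the Trk family on neurons and sustain survival, growth and synaptic change. BDNF is the main ligand of TrkB, and neurotrophin-3 is the main ligand of TrkC. Both receptors also exist as truncated forms without the kinase domain, and astrocytes carry mostly truncated TrkB. In the reward system BDNF made in midbrain and cortical neurons can reach the accumbens along axons, so the transcript and the protein need not lie in the same region. Transcription of Bdnf starts at several alternative first exons, each joined to a shared coding exon, and a cyclic AMP response element near the fourth start is a well-studied site of its activity-dependent transcription.

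Counts were made per gene, so the starts and receptor forms were not separated. The deposited tables list 10 distinct exons for Bdnf (ENSRNOG00000047466, chromosome 3, 100768637 to 100819210, plus strand, 6068 exonic bases). Ntrk2 (ENSRNOG00000018839, chromosome 17, 5933729 to 6244676, minus strand) has 23 distinct exons and 10685 exonic bases. Ntrk3 (ENSRNOG00000018674, chromosome 1, 139890560 to 140262503, minus strand) has 23 distinct exons and 3055 exonic bases. These coordinates are on the build of the tables, which is not given in the sources used here. No other feature of the tables overlapped the 3 genes. RefSeq lists 6 Bdnf starts on the GRCr8 build, and all 6 are spaced as exon starts of the deposited model. The 100 bases before 3 of them are shown, since every Bdnf count below may come from any of the starts. Capitals mark the half-site of the cyclic AMP response element, searched as TGACG on both strands.
Bdnf start 1, chr3:116619533-116619632, plus strand: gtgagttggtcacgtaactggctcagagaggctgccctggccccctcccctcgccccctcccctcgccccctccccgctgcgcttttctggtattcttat
Bdnf start 4, chr3:116637758-116637857, plus strand: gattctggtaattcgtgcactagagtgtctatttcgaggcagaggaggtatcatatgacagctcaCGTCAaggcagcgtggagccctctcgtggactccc
Bdnf start 6, chr3:116639758-116639857, plus strand: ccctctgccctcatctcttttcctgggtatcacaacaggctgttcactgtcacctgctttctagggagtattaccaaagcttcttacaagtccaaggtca
The half-site was present in 1 of the 6 windows, 35 bases before the fourth start, and 10.2% of all 33469 promoter windows of the RefSeq table hold it within the same distance. The match describes the letters of the window and no binding.

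Total counts were 4.49 M to 6.3 M in VTA libraries and 3.46 M to 5.01 M in NAc libraries, of which mitochondrial features took 17.6% to 26.9% and 22.1% to 36.7%. Values below are CPM, counts set to a common library total, after TMM scaling, which corrects for differences in composition between libraries. The libraries of female fentanyl rat 2 stood apart (animals are numbered as in their codes). Over 337 genes whose VTA level was 4-fold or more above the NAc level in the saline rats (VTA-high genes, Bdnf among them), its VTA library had the lowest mean log2 CPM of the 10 VTA libraries, 3.98 against 4.33 to 4.57. Its NAc library had the highest of the 14 NAc libraries on the same genes, 2.76 against 1.52 to 2.05. Bdnf results in the VTA of females and between regions are given with and without it. Gene names other than the 3 could not be paired with the identifiers, so the labelled tissues were not checked against markers and neurotrophin-3, p75 and other genes of the pathway were not analysed here. Libraries of one group came from separate rats.

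Per kilobase of exon, the order of the levels was Ntrk2, Ntrk3, Bdnf in both regions. Ntrk2 averaged 99.4 CPM per kb in the VTA and 87.2 CPM per kb in the NAc. Ntrk3 averaged 19.3 CPM per kb in the VTA and 25.2 CPM per kb in the NAc, and Bdnf 3.59 and 0.0479 CPM per kb. Of the nuclear genes with a count, 1.51% lay above Ntrk2, 13.2% above Ntrk3 and 41.5% above Bdnf in the VTA. In the NAc 2.03% lay above Ntrk2, 11.1% above Ntrk3 and 90.6% above Bdnf. The order held in every library, with Ntrk2 over Ntrk3 by 4.21-fold to 7.23-fold per length in the VTA and by 1.99-fold to 5.95-fold in the NAc. These per-length levels depend on the exons that the annotation gives each gene.

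**Figure D1:**
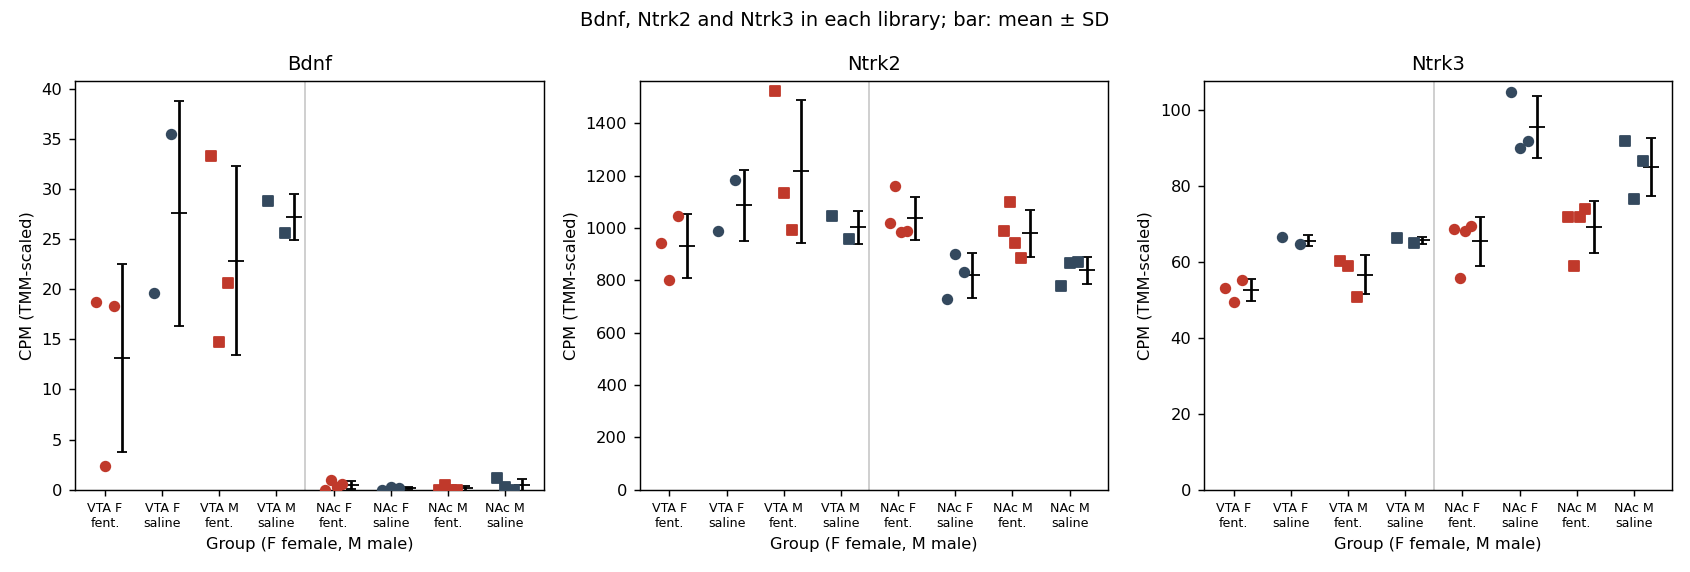
CPM of Bdnf, Ntrk2 and Ntrk3 (vertical axes from 0, each panel with its own scale) in the 8 groups of region, sex and treatment. Points are libraries, circles females, squares males, red fentanyl and dark blue saline, and bars are the group mean ± SD. Bdnf lies at 2.35 to 35.5 CPM in the VTA and at 0 to 1.14 CPM in the NAc, and every Ntrk3 point of fentanyl rats lies under every saline point of the same region.

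Bdnf, the ligand, was close to the limit of detection in the NAc and well above it in the VTA. Its 3 VTA libraries of fentanyl females had 18.7, 2.35 and 18.3 CPM (rats 1, 2 and 7), against 19.7 and 35.5 CPM in saline females. The 3 fentanyl males had 33.2, 14.8 and 20.6 CPM, against 28.8 and 25.6 CPM in saline males. In the VTA the level of female fentanyl rat 2, from 12 counts, lay far under the other libraries, which had 82 to 210 counts. The 4 NAc libraries of fentanyl females had 0, 4, 1 and 2 counts, against 0, 1 and 1 in saline females. The 4 fentanyl males had 0, 2, 0 and 0 counts in the NAc, against 4, 1 and 0 in saline males. The NAc libraries thus held 16 Bdnf counts among 57.6 M, and 6 of 14 had none. A count of 0 allows up to 0.586 to 1.08 CPM in these libraries (3 counts, counting error only).

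VTA levels of Bdnf were above NAc levels in 10 of 10 rats. Region differences are common: 65.4% of 12901 genes were called across treatments, 32.3% of them all as higher in the VTA. The share of genes higher in the VTA of all 10 rats was not computed. The summed Bdnf counts were 1299 in the VTA and 13 in the NAc, a 65.5-fold difference per TMM-scaled total count (95% exact counting interval 38.1 to 123). The ratio was 57.8 (27.9 to 144) in the 6 fentanyl rats and 74.5 (34.1 to 204) in the 4 saline rats. These intervals hold counting error only and leave out the spread between rats, so they do not compare the treatments. Among rats with a Bdnf count in the NAc, the ratio within a rat ran from 2.56 to 158. Female fentanyl rat 2 was the least divided, with 12 counts in the VTA and 4 in the NAc. Without it the ratio was 91.0 (47.8 to 199) over all rats and 125 (42.6 to 608) in fentanyl rats, from 609 and 3 counts, so which treatment had the higher ratio turned on this animal. Bdnf entered the fit between regions only through its VTA counts, since it failed the low-count filter in the NAc, so that fit could not come out otherwise and no test of it is given. In bulk tissue, fewer cells that make a transcript and less of it per cell cannot be told apart.

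**Figure D2:**
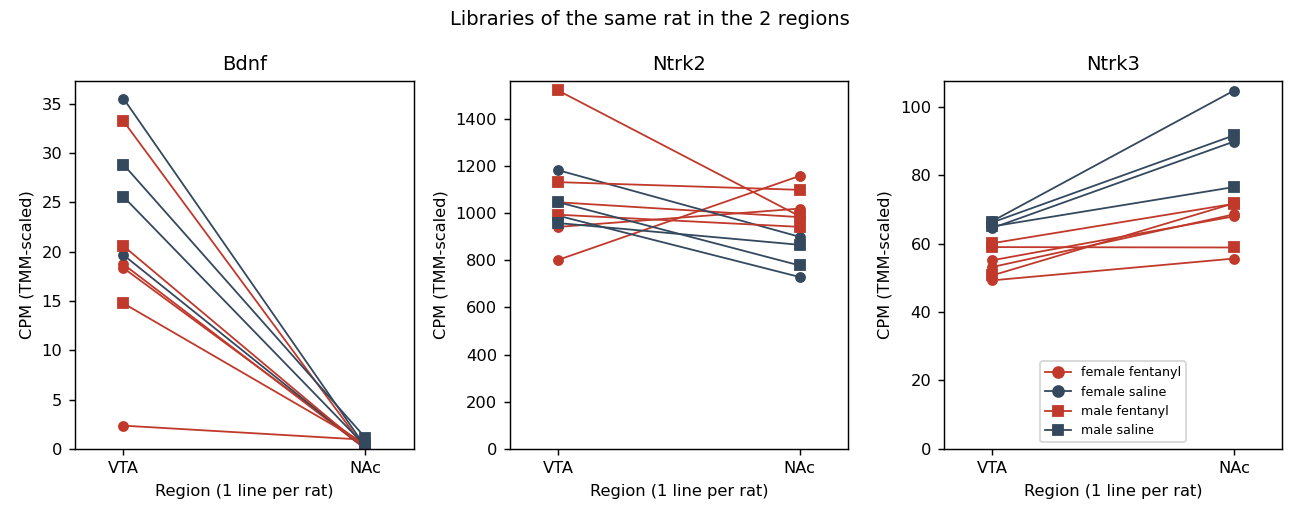
CPM of each gene in the VTA and the NAc of the same rat (vertical axes from 0), with 1 line for each of the 10 rats that gave both libraries. Red lines are fentanyl rats and dark blue lines saline rats, circles are females and squares males. Bdnf is at most 1.14 CPM in the NAc of every rat, and Ntrk3 is higher in the NAc in 9 of 10 rats.

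Fentanyl rats were not shown to differ from saline rats in VTA Bdnf beyond the spread between animals. All 3 fentanyl females lay under both saline females, while fentanyl males enclosed the saline males. The background is high for this pattern. In 22.2% of 14400 genes the 3 fentanyl and 2 saline females do not overlap, and in 11.6% they do so with fentanyl lower. The log2 fold change was -1.06 ± 0.69 in females (95% interval -2.66 to 0.55, adjusted p 0.761, edgeR) and -0.26 ± 0.67 in males (-1.82 to 1.3, adjusted p 0.985, edgeR). Without female fentanyl rat 2 the female value was -0.56 (adjusted p 0.783). Over the alternatives of the female value the adjusted p ran from 0.000752 to 1.0, and it passed the threshold only without the filter on low counts. The male value was -0.01 without fentanyl male 2 and -0.64 without fentanyl male 1. The mean of the sexes was -0.66 ± 0.48 (adjusted p 0.697), and females minus males -0.80 ± 0.97 (adjusted p 1.0). Without female fentanyl rat 2 these were -0.41 and -0.31. No gene was called in these 4 VTA comparisons by edgeR, so the percentage called was 0. Genes with an unadjusted p under 0.05 numbered 1098 in females, 648 in males, 1271 for the mean and 476 for the difference between the sexes. DESeq2 made 37, 7, 39 and 1 calls in these comparisons.

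The spread of Bdnf within VTA groups was wide. The SD of its log2 CPM within groups was 1.0, against a median of 0.229 among 2842 genes of similar level (within 1.5-fold), and 0.774% of those had a larger SD. Much of this lay in 1 library: without female fentanyl rat 2 the SD was 0.454 against a median of 0.215, and 5.03% of 2786 genes had a larger one. That library was also the lowest on the VTA-high genes, and the part this has in its Bdnf level was not tested. In the NAc Bdnf did not pass the low-count filter, so fentanyl and saline rats were not tested there. With no filter its log2 fold change was 1.52 in females and -1.63 in males (adjusted p 0.585 and 0.888, edgeR), resting on 7 counts against 2 and on 2 counts against 5.

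Ntrk2, the BDNF receptor, was higher in the NAc of fentanyl females than of saline females. The 4 fentanyl females had 1020, 1159, 984 and 989 CPM (rats 1, 2, 7 and 8), against 729, 900 and 830 CPM in saline females (rats 1, 2 and 4). The 4 fentanyl males had 987, 1100, 942 and 887 CPM (rats 1, 2, 3 and 7), against 778, 866 and 869 CPM in saline males (rats 1, 3 and 4). Within each sex the groups did not overlap, though the lowest fentanyl male was under the highest saline female. With total counts the females overlapped, at 798 to 1072 CPM in fentanyl females and 782 to 897 CPM in saline females, and the males did not. Non-overlap with fentanyl higher was found in 12.3% of 13248 genes in females and in 4.06% in males.

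The log2 fold change of Ntrk2 in NAc females was 0.35 ± 0.10 (1.27-fold, 95% interval 0.13 to 0.57, adjusted p 0.0288, edgeR quasi-likelihood test with Benjamini-Hochberg adjustment). The same comparison called 13.5% of 13248 genes, 8.05% higher and 5.45% lower, so that Ntrk2 was 1 of many. In males it was 0.23 ± 0.10 (interval 0.02 to 0.45) with an adjusted p of 0.757, and no gene was called (0%). In males 850 genes passed an unadjusted p of 0.05, and 6 were called with DESeq2. The mean of the sexes was 0.29 ± 0.07 (adjusted p 0.0196, edgeR), in a comparison that called 7.51% of genes, 4.52% higher and 2.99% lower. Females and males were not shown to differ: the difference of their effects was 0.12 ± 0.15 (adjusted p 0.781, edgeR), and 0.77% of genes were called for it.

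The call of Ntrk2 was sensitive to scaling and to single animals. Scaled by total counts alone, the median log2 fold change of all genes in NAc females was -0.21, and Ntrk2 was 0.15 (adjusted p 0.341). Relative to the median of all genes, Ntrk2 was 0.35 higher under either scaling. A change of scaling moves all genes by about the same amount, so this distance could hardly differ and is no separate evidence. The female call was lost without fentanyl female 2 (0.29, adjusted p 0.0508), saline female 1 (0.27, 0.170) or saline female 4 (0.36, 0.0823), and over its alternatives the adjusted p ran from 0.00759 to 0.341. For the mean of the sexes the call was lost without fentanyl male 2, saline male 1 or saline female 1, at 0.25 to 0.27 (adjusted p 0.0503 to 0.0761, range over its alternatives 0.00251 to 0.0929). The mitochondrial share of counts was 31.6% ± 3.5 in fentanyl females (SD, n = 4) and 24.5% ± 2.1 in saline females (n = 3). The female groups did not overlap in it, at 29.2% to 36.7% and 22.1% to 26.1%. Males were alike, at 27.8% ± 0.7 in fentanyl males (n = 4) and 28.4% ± 3.2 in saline males (n = 3). With mitochondrial features left out before scaling, the Ntrk2 value in females was 0.35 (adjusted p 0.0295, edgeR). Any other part of that share in the Ntrk2 levels was not tested.

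In the VTA no such difference in Ntrk2 was shown, though the interval of the mean below also holds the NAc mean of 0.29. Fentanyl females had 942, 802 and 1047 CPM, against 990 and 1183 CPM in saline females. Fentanyl males had 1522, 1132 and 994 CPM, against 1048 and 959 CPM in saline males. Fentanyl female 2 was the lowest and fentanyl male 1 the highest of the 10 libraries, and the groups overlapped in both sexes. The log2 fold change was -0.22 ± 0.18 in females (adjusted p 0.804, edgeR), 0.27 ± 0.19 in males (adjusted p 0.956) and 0.03 ± 0.13 for their mean (interval -0.25 to 0.31, adjusted p 0.958). With 1 library left out the values ran from -0.33 (without saline female 1) to -0.09 (without saline female 2) in females, and were -0.12 without fentanyl female 2. In males they ran from 0.08 (without fentanyl male 1) to 0.41 (without fentanyl male 3). The mean was -0.06 with total counts alone. Females minus males was -0.49 ± 0.26 (interval -1.06 to 0.08, adjusted p 1.0, edgeR).

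Between the regions, Ntrk2 was higher in the VTA of the 4 saline rats, by 1.11-fold to 1.36-fold within rats, while fentanyl rats had 0.692-fold to 1.54-fold. The log2 difference was 0.35 ± 0.12 in saline rats (adjusted p 0.0273, edgeR) and 0.03 ± 0.10 in fentanyl rats (adjusted p 0.833). Across treatments it was 0.19 ± 0.08 (adjusted p 0.0479). Calls are common between the regions: 49% of 12901 genes were called in saline rats, 58.1% in fentanyl rats and 65.4% across treatments. That call was lost when any of 6 rats was left out, fentanyl female 1, fentanyl female 7, fentanyl male 1, saline female 1, saline female 2 or saline male 1 (0.15 to 0.21, adjusted p 0.0565 to 0.139, range over its alternatives 0.00100 to 0.139). The saline call was lost without saline female 1, saline female 2 or saline male 1 (0.29 to 0.37, adjusted p 0.0683 to 0.160), and over its alternatives the adjusted p ran from 0.00155 to 0.160. The fentanyl effect in the VTA minus that in the NAc was -0.32 ± 0.16 (interval -0.66 to 0.01, adjusted p 0.807, edgeR). No gene was called for that difference (0%); 786 of 12901 passed an unadjusted p of 0.05, and 1 was called with DESeq2. These region comparisons share libraries with the comparisons within regions.

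Ntrk3, the neurotrophin-3 receptor, fell in the NAc of fentanyl females and over both sexes together. The 4 fentanyl females had 68.6, 55.7, 68.0 and 69.3 CPM, against 104.8, 89.9 and 91.8 CPM in saline females. The 4 fentanyl males had 71.7, 58.9, 71.8 and 73.8 CPM, against 91.7, 76.6 and 86.5 CPM in saline males. All 8 fentanyl rats lay under all 6 saline rats, and the animals numbered 2 were the lowest of both fentanyl groups. Of 13248 genes, 1.01% did not overlap between the 8 fentanyl and 6 saline rats, and 0.543% did so with fentanyl lower. With total counts in place of TMM scaling the females still did not overlap (51.5 to 65.9 CPM in fentanyl females and 89.6 to 112 CPM in saline females). The males then overlapped, at 57.1 to 71.8 CPM in fentanyl males and 68.0 to 93.3 CPM in saline males.

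The log2 fold change of Ntrk3 was -0.54 ± 0.11 in NAc females (0.687-fold, interval -0.77 to -0.32, adjusted p 0.00257, edgeR) and -0.29 ± 0.11 in males (interval -0.52 to -0.06, adjusted p 0.652). For the mean of the sexes it was -0.42 ± 0.08 (0.749-fold, adjusted p 0.00360, edgeR), and 0.476% of the genes tested had a smaller p. In size it was less marked, since 12.9% of genes had a larger absolute log2 fold change there, and 18.3% had one in females. The female comparison called 13.5% of 13248 genes (5.45% lower) and the mean 7.51% (2.99% lower), so that Ntrk3 was 1 of many. The difference between the sexes was -0.25 ± 0.16 (interval -0.57 to 0.08, adjusted p 0.508), so a difference between females and males was not shown. With each of the 14 libraries left out in turn the value stayed at -0.58 to -0.47 in females and at -0.45 to -0.38 for the mean, each time with an adjusted p under 0.05. Without both NAc fentanyl libraries numbered 2, a choice made after the values were seen, it was -0.47 in females (adjusted p 0.00472) and -0.35 for the mean (adjusted p 0.0102, edgeR). Over all its alternatives the adjusted p ran from 0.000108 to 0.0306 in females and from 5.17e-05 to 0.0221 for the mean. With mitochondrial features left out before scaling it was -0.54 in females, and any other part of the mitochondrial share in the NAc Ntrk3 levels was not tested.

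In the VTA Ntrk3 was also lower in every fentanyl library, but the difference did not pass the test. Fentanyl females had 53.2, 49.3 and 55.2 CPM, against 66.6 and 64.6 CPM in saline females. Fentanyl males had 60.2, 59.0 and 50.7 CPM, against 66.2 and 65.1 CPM in saline males. The 6 fentanyl libraries all lay under the 4 saline libraries, under total counts as well as under TMM scaling. Of 14400 genes, 2.31% did not overlap between these groups and 1.25% did so with fentanyl lower. The mitochondrial share of counts split the same libraries, at 21.3% to 26.9% in fentanyl rats and 17.6% to 21.0% in saline rats. With mitochondrial features left out before scaling, the mean over the sexes was -0.26 (adjusted p 0.499), and any other part of that share in the Ntrk3 levels was not tested. The log2 fold change was -0.31 ± 0.13 in females (adjusted p 0.640, edgeR), -0.22 ± 0.13 in males (adjusted p 0.956) and -0.26 ± 0.09 for the mean (interval -0.47 to -0.06, unadjusted p 0.0148 in edgeR, adjusted p 0.469). The 4 saline libraries spread by 1.45% of their mean (coefficient of variation), less than the 4.95% that counting error alone gives at their depth, while the 6 fentanyl libraries spread by 8.02% against 5.68%. Over 12924 genes tested in both regions, 6 genes (0.0464%) had fentanyl rats under saline rats with no overlap in both, and Ntrk3 was 1 of them under TMM scaling. With total counts the NAc groups overlapped for Ntrk3, so it would not be counted. Most of these rats gave both libraries, so the regions are not independent.

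**Figure D3:**
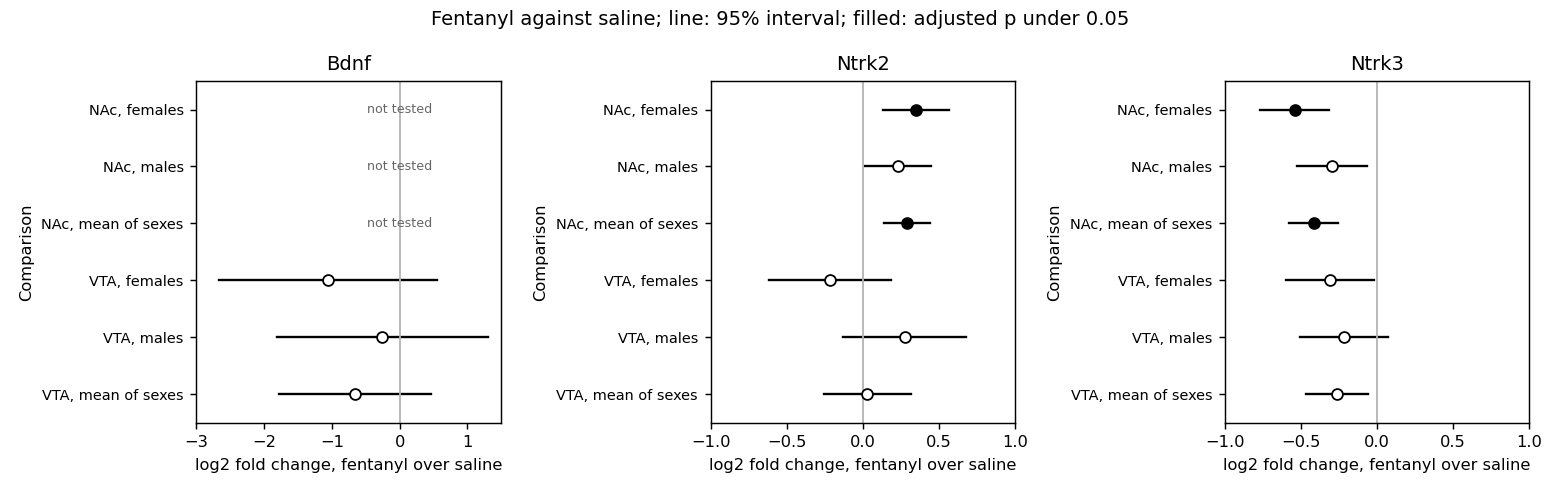
Log2 fold change of fentanyl over saline (horizontal axes, the Bdnf panel with a wider scale) for each gene in the NAc and the VTA, in females, in males and as the mean of the sexes. Lines are 95% intervals, filled points have an adjusted p under 0.05 in edgeR's quasi-likelihood test, and Bdnf was not tested in the NAc. Filled points are Ntrk2 at 0.35 and 0.29 and Ntrk3 at -0.54 and -0.42, all in the NAc.

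Under TMM scaling, Ntrk3 was lower in the VTA than in the NAc, within rats, in 9 of 10. With total counts it was higher in the VTA of fentanyl female 2 (51.8 against 51.5 CPM) and fentanyl male 2 (63.5 against 57.1 CPM). The same held in saline male 3 (73.2 against 68.0 CPM). The within-rat ratio ran from 0.706 to 1.00 in fentanyl rats and from 0.635 to 0.849 in saline rats. The log2 difference was -0.27 ± 0.09 in fentanyl rats (adjusted p 0.0169, edgeR), -0.46 ± 0.11 in saline rats (adjusted p 0.00197) and -0.37 ± 0.07 across treatments (adjusted p 0.000236). These comparisons called 58.1%, 49% and 65.4% of 12901 genes, so that Ntrk3 was 1 of many. The median absolute log2 difference of all genes was 0.468, 0.449 and 0.445 in the same order. With total counts the median of all genes moved by 0.17 to 0.18 in these comparisons, and Ntrk3 was -0.09, -0.29 and -0.19, none of them called (adjusted p 0.509, 0.0757 and 0.0593). Relative to the median of all genes it was -0.26, -0.46 and -0.36, distances that by construction a change of scaling leaves nearly as they are. The call in fentanyl rats was also lost with DESeq2 and with no low-count filter. It was lost as well without fentanyl female 1, fentanyl male 1 or fentanyl male 3 (-0.24 to -0.21, adjusted p 0.0569 to 0.0814). Over the alternatives of this call the adjusted p ran from 0.0124 to 0.509. The fentanyl effect in the VTA minus that in the NAc was 0.19 ± 0.14 (interval -0.10 to 0.49, adjusted p 0.857, edgeR).

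Saline females and saline males were not shown to differ in any of the 3 genes. In the NAc the log2 difference, females minus males, was -0.03 ± 0.11 for Ntrk2 (adjusted p 0.952, edgeR) and 0.17 ± 0.12 for Ntrk3 (adjusted p 0.633), and 0.377% of genes were called. The sign of the Ntrk2 value turned to 0.09 with total counts. In the VTA the values were 0.02 ± 0.73 for Bdnf, 0.11 ± 0.20 for Ntrk2 and 0.00 ± 0.15 for Ntrk3 (adjusted p 1.0 for each, edgeR), and 0.0556% of genes were called. With 2 saline rats of each sex in the VTA, the 95% interval of the Bdnf value ran from -1.69 to 1.72.

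The ratio of the receptors within a library does not depend on scaling. Per length, Ntrk2 over Ntrk3 in the NAc was 4.60 ± 0.90 in fentanyl females (SD, n = 4) and 2.48 ± 0.45 in saline females (n = 3). It was 4.11 ± 0.84 in fentanyl males (n = 4) and 2.84 ± 0.40 in saline males (n = 3). In the VTA it was 5.05 ± 0.39 in fentanyl females (n = 3) and 4.74 ± 0.70 in saline females (n = 2), and 6.11 ± 0.98 in fentanyl males (n = 3) and 4.37 ± 0.22 in saline males (n = 2). A ratio shows unequal levels and not which gene moved.

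Across the 14 NAc libraries Ntrk3 was low where Ntrk2 was high. Pearson's r of their log2 CPM was -0.95 and Spearman's rho -0.938 (permutation p 2e-05 for each, adjusted p 0.00012 over 6 relations). The relation held on residuals from the 4 group means (r -0.899, adjusted p 0.00024) and without the 2 libraries farthest from the median of Ntrk2 (r -0.902). Residuals of the same group are tied by its mean, while the permutation treats them as independent, so the p on residuals is too small. Within the 8 fentanyl rats r was -0.946 (rho -0.857, exact permutation p 0.000992 and 0.0107), and -0.925 without the 2 farthest. Within the 6 saline rats r was -0.741 (rho -0.714, exact permutation p 0.0833 and 0.136), and -0.127 without the 2 farthest, so there it rests on those animals. None of the other 10665 nuclear genes of at least 5 CPM in the NAc had a lower r with Ntrk2 than Ntrk3 did. The points share libraries and their scaling factors: with total counts r was -0.566 (rho -0.525, permutation p 0.0324 and 0.0556), and -0.293 without the 2 farthest.

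Other measures of the NAc libraries moved with the receptors, and their part in the relation was not tested. The mitochondrial share of counts had an r of 0.634 with Ntrk2 (rho 0.582, permutation p 0.0134 and 0.0308) and of -0.64 with Ntrk3 (rho -0.684, permutation p 0.0121 and 0.00884). Without the 2 libraries farthest in that share, r was 0.532 and -0.634. The mean level of the VTA-high genes had an r of 0.587 with Ntrk2 (rho 0.415, permutation p 0.0202 and 0.142) and of -0.525 with Ntrk3 (rho -0.284, permutation p 0.0489 and 0.325). Those relations rest on few libraries, since r was 0.346 and -0.292 without the 2 farthest. For 429 genes with a VTA level 4-fold or more under the NAc level in saline rats, r was -0.553 with Ntrk2 and 0.565 with Ntrk3 (rho -0.297 and 0.301, permutation p 0.034 and 0.0277 for r and 0.302 and 0.296 for rho). Without the 2 farthest it was 0.11 and -0.0371. These 6 relations and the 3 within treatments or with total counts were chosen after the data were seen, and over the 9 the adjusted p of r was 0.00893 to 0.0833.

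**Figure D4:**
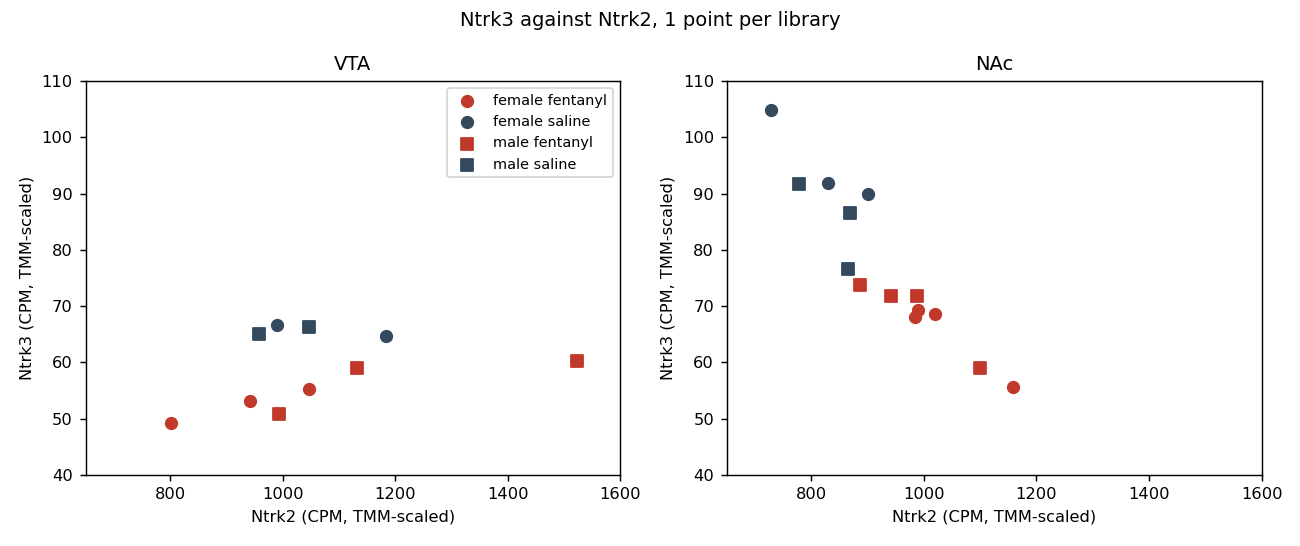
Ntrk3 (vertical axis) against Ntrk2 (horizontal axis), both in CPM, with 1 point per library in the VTA (10 libraries) and the NAc (14 libraries). Circles are females and squares males, red fentanyl and dark blue saline. The axes do not start at 0. In the NAc fentanyl rats lie at lower Ntrk3 and mostly higher Ntrk2 than saline rats, with r -0.95 over all points, and in the VTA r is 0.404.

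The VTA gave a different picture across its 10 libraries. Ntrk2 with Ntrk3 had an r of 0.404 (rho 0.345, permutation p 0.246 and 0.329, adjusted p of r 0.296) and, on residuals from the group means, 0.755 (adjusted p 0.0203). That permutation p is too small, since residuals in groups of 2 or 3 libraries are closely tied, so no relation within groups is drawn from it. Bdnf with Ntrk2 had an r of 0.678 (rho 0.576, permutation p 0.0156 and 0.0868, adjusted p of r 0.0312), and Bdnf with Ntrk3 one of 0.653 (rho 0.564, permutation p 0.0213 and 0.0958, adjusted p of r 0.032). Without the 2 libraries farthest from the median these were 0.261, 0.479 and 0.409 (adjusted p 0.462 to 0.529), so they rest on those libraries. Between the regions of the same 10 rats, Ntrk3 had an r of 0.774 (rho 0.818, permutation p 0.00732 and 0.00552, adjusted p of r 0.022). It was 0.172 on residuals from the group means (adjusted p 0.742), so it was not seen within groups. Ntrk2 had an r of -0.0814 between the regions (rho -0.127, permutation p 0.804 and 0.73). Relations with NAc Bdnf were not computed, since its libraries held 0 to 4 counts.

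Among the 10665 genes compared, those most like the receptors over the 14 NAc libraries are given by identifier, since the files pair none with a name. Nearest to Ntrk2 were ENSRNOG00000020392 (chromosome 2, 211595659 to 211638788) at r 0.899 and ENSRNOG00000014624 (chromosome 16, 6035926 to 6044239) at r 0.897. In fentanyl females ENSRNOG00000020392 and ENSRNOG00000014624 rose by 0.59 and 0.65 on the log2 scale (adjusted p 0.00694 and 0.00616, edgeR). ENSRNOG00000008480 was at 0.98 and was not called (adjusted p 0.102, edgeR). Nearest to Ntrk3 were ENSRNOG00000009266 (chromosome 5, 62071346 to 62094633) at r 0.934 and ENSRNOG00000020882 (chromosome 1, 84154703 to 84168074) at r 0.932. Of these, ENSRNOG00000020882 fell by 0.83 in fentanyl females (adjusted p 0.00998, edgeR), and ENSRNOG00000009266 was at -0.27 (adjusted p 0.148). ENSRNOG00000011040 was at -1.07 (adjusted p 0.00184, edgeR). The female comparison called 13.5% of genes, and genes picked to follow a receptor over these libraries tend to share its difference. All of these values come from the same libraries and describe likeness only.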

How the data were processed

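The authors deposited 1 table of raw, unnormalized counts per library, by Ensembl gene. Per the labels, ribosomal RNA was depleted and paired ends were read. Per the submitters' processing notes, the tools include DESeq2, featureCounts, STAR 2.5.2b, Subread 1.5.2 and Trimmomatic 0.36, named without role or order. How multi-mapped reads and strands were treated, and on which build and annotation, is not given in the sources used here.

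Groups came from the labels. Each region was fitted over its 4 groups of sex and treatment, and regions were compared in 10 rats with rat as a block. The test was edgeR 4.0.16 in R 4.3.3 (TMM, filterByExpr, robust quasi-likelihood F test, two-sided), with Benjamini-Hochberg adjusted p under 0.05 over all genes tested. The fit was also run on simulated NAc counts, with the same spread for every gene and changes larger than those of the receptors. No result here rests on that run. Bdnf did not pass the filter in the NAc. Log2 CPM used a pseudocount of 0.5. Relations used two-sided permutation tests with 100000 resamples, exact below 10 libraries (scipy 1.17.1). Counting intervals and floors leave out other error, since PCR copies of a molecule are not independent. Alternatives were DESeq2 1.42.0, other scaling and filters, blocks, separate sexes and left-out libraries. Lists of 100 pathway and 45 marker genes could not be matched, since 0 Ensembl identifiers stand in the reference table, and were not analysed here. For likeness, the 3 genes of highest r with each receptor were named. The genes and lists were chosen with earlier results of these data known.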

Additional observations from a re-analysis of the deposited data

Results flagged for a closer look

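Ntrk3 in the NAc had 1 library far from the others in both fentanyl groups. In fentanyl females rat 2 had 55.7 CPM, against 68.0 to 69.3 CPM in the other 3, and its gap to the nearest took 0.903 of the group's range. In fentanyl males rat 2 had 58.9 CPM, against 71.7 to 73.8 CPM, a gap of 0.858 of the range. Both lie above Dixon's critical value for 4 samples. The 4 values checked were Ntrk2 and Ntrk3 in these groups, and chance marks about 1 group in 20. The same libraries had the highest Ntrk2 of their groups, 1159 and 1100 CPM, and the highest mean log2 CPM of their groups on the VTA-high genes, 2.76 and 2.05. The part that the VTA-high genes have in the Ntrk3 level was not tested.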

How the results depend on the processing

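The Ntrk3 calls in NAc females and for the mean of the sexes kept direction and threshold under every alternative run. Counts of called genes were less stable. With DESeq2 they were 6 (NAc males), 256 (NAc females minus males), 120 (NAc saline females minus males), 37, 7, 39 and 1 (VTA females, males, mean and difference of sexes) and 1 (fentanyl effect in the VTA minus the NAc). With no low-count filter they were 46, 388, 210, 418, 114, 499, 109 and 148 in the same order, and 115 for VTA saline females minus males; Bdnf in the VTA was then called at -1.07 in females (adjusted p 0.000752) and -0.67 for the mean (adjusted p 0.00422). With total counts, 2694 genes were called in NAc females and 33 between NAc saline sexes. Ntrk2 was then 0.15 in NAc females, 0.20 for the mean, -0.11 for females minus males and 0.087 between saline sexes, and -0.064 for the VTA mean. Ntrk3 between regions was then -0.089 in fentanyl rats, -0.29 in saline rats and -0.19 across treatments. With each sex alone, 1102, 2, 5 and 2 genes were called (NAc females and males, VTA females and males), and Ntrk2 in NAc females was 0.35 (adjusted p 0.0821). Ntrk3 between regions in fentanyl rats was -0.25 with DESeq2 (adjusted p 0.0799) and -0.22 with no filter (adjusted p 0.128, edgeR), and both lost the call. Ntrk3 between VTA saline sexes was 0.0066 with DESeq2. Without both NAc fentanyl libraries numbered 2, 610 genes were called for the NAc mean and 171 for females minus males. The cause of these changes was not tested.

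The number in the animal code was tried as a replicate block within regions. Same-numbered libraries of a sex had residual correlations of -0.0351 to 0.0147 in the NAc. In the VTA these were 0.206 and 0.178 in males and 0.0405 and -0.012 in females. Whether VTA males of the same number share more than the number was not tested. With the block, 341 genes were called for the NAc mean, 236 for females minus males, 13 between NAc saline sexes and 1 for the VTA mean. Ntrk2 was 0.34 for the NAc mean (adjusted p 0.0526) and -0.044 for the VTA mean. Leaving the rat out of the fits between regions (no block) changed no call of the 3 genes.

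With each library (between regions, each rat) left out in turn, the genes called were 755 to 2018 in NAc females (lowest without saline female 1), 0 to 2 in NAc males, 315 to 1299 for the NAc mean (lowest without saline male 4), 20 to 299 for NAc females minus males and 10 to 136 between NAc saline sexes. In the VTA they were 0 to 11 in females, 0 to 1 in males, 0 to 2 for the mean, 0 to 5 for the difference and 8 to 15 between saline sexes, and 0 to 1 for the fentanyl effect in the VTA minus the NAc. Ntrk2 was 0.27 to 0.42 in NAc females, 0.25 to 0.33 for the NAc mean, -0.11 to 0.044 between NAc saline sexes, -0.070 to 0.097 for the VTA mean and -0.012 to 0.23 between VTA saline sexes. Between regions Ntrk2 was -0.044 to 0.11 in fentanyl rats, 0.29 to 0.45 in saline rats and 0.15 to 0.25 across treatments, where the call was lost in 6 of 10, and Ntrk3 was -0.31 to -0.21 in fentanyl rats. Bdnf was -0.46 to 0.37 and Ntrk3 -0.034 to 0.028 between VTA saline sexes. For the fentanyl effect in the VTA minus the NAc, Bdnf was -1.73 to 0.80. The NAc side of that Bdnf range rests on 7 counts in fentanyl rats and 6 in saline rats. Bdnf entered that fit only through its VTA counts, so nothing is concluded from the range. Among the relations, Bdnf with Ntrk3 in the VTA was 0.475 on residuals and 0.409 without the 2 farthest libraries, Bdnf with Ntrk2 0.479 without them, Ntrk2 with Ntrk3 in the VTA 0.755 on residuals, and Ntrk3 between regions 0.172 and 0.615. Depth limits NAc Bdnf, with 0 to 4 counts per library, and n = 2 limits the VTA saline groups.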
